A study of Mus musculus with 14 samples.

Results

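The genes described are 10 immune checkpoint ligands other than those of PD-1: Cd80, Cd86, Pvr, Nectin2 (also written Pvrl2), Lgals9, Ceacam1, Tnfrsf14, Cd276, Cd200 and Cd47. They were chosen by name, as probe sets that carry exactly 1 of these gene symbols, and where a gene had more than 1 such probe set its brightest on average stood for it. All 10 were found among the 22180 genes of the first array design and among the 19938 genes of the second. All 10 also lay above the filter that left out the lowest 25% of genes on the first design, so all were among the 16635 genes tested. In the RefSeq gene table of GRCm38.p6, Cd80, Cd86, Cd200 and Cd47 lie on chromosome 16 and Pvr, Nectin2 and Ceacam1 on chromosome 7.

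Total RNA of 14 tumors grown from sublines of B16-F10, a pigmented melanoma line of C57BL/6 mice, was hybridised to Affymetrix whole-transcript arrays. There were 7 Res 499 tumors, 2 Res 177 tumors and 5 control tumors, of which 7, 1 and 4 were on the first design and 0, 1 and 1 on the second. Res 499 and Res 177 are cell lines recovered from unirradiated tumors that withstood or relapsed after the therapy, and both are labelled resistant, while the control subline is labelled sensitive. In the protocol that all labels share, B16-F10 cells in Matrigel were placed under the skin, on the right side at day 0 and on the left at day 2. The right-hand tumor received 20 Gy at day 8, and 9H10, an antibody that blocks CTLA4, was injected at day 5 and again at day 8 and day 11. The labels do not say whether the profiled tumors had themselves been treated, how old the mice were, whether a subline is 1 clone, or whether the tumors of a group came from separate mice. The p-values therefore measure only the spread between these tumors, which may be partly technical.

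Checkpoint ligands are surface or secreted proteins that pass inhibitory, and in some cases stimulatory, signals to T cells, NK cells and macrophages. CD80 and CD86 on antigen-presenting cells bind CD28, which costimulates T cells, and also bind CTLA4, which restrains them and is the target of the antibody in this study. Tumor cells themselves can carry others, such as the poliovirus receptor family ligands of TIGIT and the "don't eat me" signal CD47, which binds SIRPα on phagocytes.

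Melanocyte lineage markers were high in every tumor, as the label B16-F10 implies: the mean of 10 markers ran from 11.86 to 12.42 in Res 499, was 12.15 in the Res 177 tumor and ran from 11.95 to 12.04 in control tumors. All levels are log2 expression values. Levels of different genes were set against each other only in calling these markers high and in the filter on dim genes. Leukocyte content, taken as the mean of 5 leukocyte genes (Ptprc, Cd53, Laptm5, Coro1a and Cd52), spread far more in Res 499, from 5.87 to 7.96 with a median of 7.53, and was 7.27 in the Res 177 tumor and 6.09 to 6.48 in control tumors. The mean of 26 interferon-stimulated genes ran from 7.17 to 8.44 in Res 499, was 8.05 in Res 177 and ran from 7.06 to 7.38 in control tumors. In such bulk samples fewer cells of a type and less RNA per cell cannot be told apart.

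None of the 10 ligands passed the test in Res 499 against control tumors (limma, Benjamini-Hochberg adjusted p over 16635 genes, threshold 0.05). Over all genes 0.355% passed. In all, 8 of the 10 had a positive change, against 51.7% of all genes, and the median change was 0.094, against 0.0053 over all genes. One ligand, Cd80, had an unadjusted p under 0.05, as did 13% of all genes. No ligand had non-overlapping ranges in the 2 groups, whereas 2.39% of all genes did.

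Cd80 and Cd86, the ligands shared by CD28 and CTLA4, had the largest positive changes of the 10. Cd80 was at 6.45 at the lowest, 6.66 at the median and 7.13 at the highest in Res 499, and at 6.63 in the Res 177 tumor. In control tumors it was at 6.35, 6.04, 6.43 and 6.49. Thus 6 of 7 Res 499 tumors, and the Res 177 tumor, lay above every control, a pattern of 6 or more Res 499 tumors that 4.44% of all genes showed. The Res 499 change was 0.40 (SE 0.13, 95% interval 0.13 to 0.67), or 1.32-fold, and did not pass over all genes (unadjusted p = 0.00773, limma adjusted p = 0.198).

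Cd86 was at 5.20, 5.60 and 6.13 at the lowest, median and highest in Res 499, and at 5.64 in the Res 177 tumor. In control tumors it lay close together, at 5.34, 5.13, 5.28 and 5.25. Here 5 of 7 Res 499 tumors lay above every control and 2, replicates 4 and 7, lay among the controls. The share of all genes was counted only for 6 or more, so this count and the lower ones below are descriptions only. The SD was 0.36 in Res 499 (n = 7) and 0.09 in control (n = 4). The change was 0.34 (SE 0.17, 95% interval -0.02 to 0.70, limma adjusted p = 0.412). Its mean of 5.48 over the 12 arrays was near the filter level of 4.94. With leukocyte content as a covariate the Cd86 change was 0.00038 (SE 0.11, limma adjusted p = 0.999) and that of Cd80 was 0.20 (SE 0.12, limma adjusted p = 0.569).

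**Figure D1:**
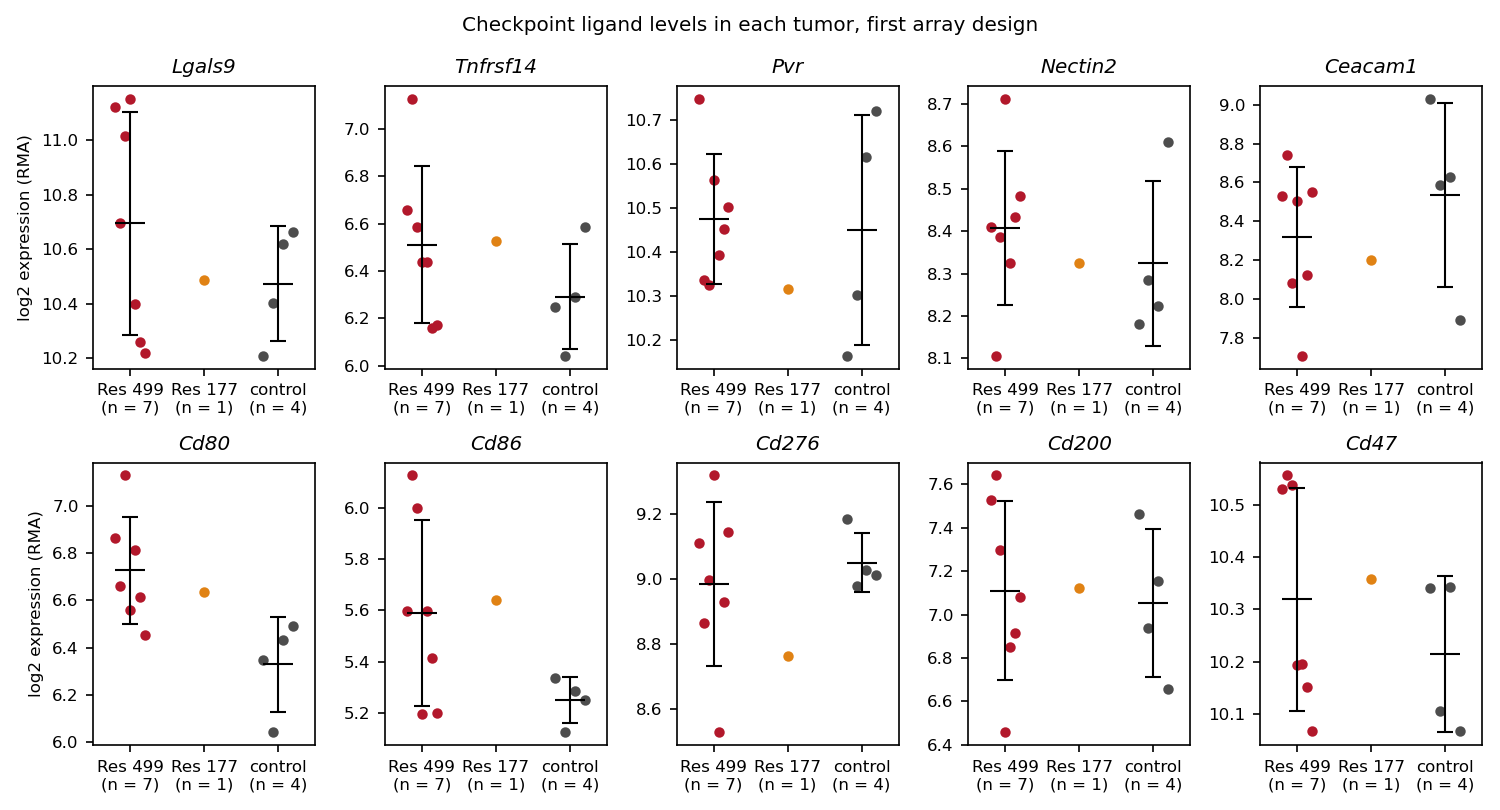
Log2 expression of each of the 10 ligands (vertical axes, own scale per gene) in 7 Res 499 tumors, 1 Res 177 tumor and 4 control tumors of the first design; points are tumors, long ticks are group means and bars are SD. Cd80 shows 6 of 7 Res 499 tumors above every control, Cd86 5 of 7, and no gene separates the groups completely.

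Pvr and Nectin2 encode CD155 and CD112, nectin family proteins bound by the activating receptor CD226 and by the inhibitory receptor TIGIT. Pvr was at 10.32, 10.45 and 10.75 at the lowest, median and highest in Res 499, at 10.32 in the Res 177 tumor, and at 10.16, 10.30, 10.62 and 10.72 in control tumors. Nectin2 was at 8.11, 8.41 and 8.71 in Res 499, at 8.33 in Res 177, and at 8.18, 8.28, 8.22 and 8.61 in control tumors. The groups overlapped almost entirely for both. The Res 499 change of Pvr was 0.024 (SE 0.11, 95% interval -0.22 to 0.27, limma adjusted p = 0.954) and that of Nectin2 was 0.083 (SE 0.11, 95% interval -0.15 to 0.32, limma adjusted p = 0.812). Both intervals lie within 0.32 of 0 on the log2 scale. The sign of the Pvr change was not stable, since it was -0.072 without control replicate 2.

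Lgals9, Ceacam1 and Tnfrsf14 encode galectin-9, a secreted lectin that binds TIM-3, the adhesion receptor CEACAM1, which binds itself and TIM-3, and HVEM, which engages the inhibitory receptor BTLA and the cytokine LIGHT. Lgals9 was at 10.22, 10.70 and 11.15 at the lowest, median and highest in Res 499, at 10.49 in the Res 177 tumor, and at 10.21, 10.40, 10.62 and 10.67 in control tumors. Of the 7 Res 499 tumors 4 lay above every control, replicates 1, 2, 3 and 4, and 3 lay among the controls. The change was 0.22 (SE 0.19, 95% interval -0.20 to 0.64, limma adjusted p = 0.695).

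Tnfrsf14 was at 6.16, 6.44 and 7.13 in Res 499, at 6.53 in Res 177, and at 6.25, 6.04, 6.29 and 6.58 in control tumors. Only 3 of 7 Res 499 tumors lay above every control, and replicate 2 stood highest. The change was 0.22 (SE 0.17, 95% interval -0.14 to 0.58, limma adjusted p = 0.634). Ceacam1 was at 7.71, 8.50 and 8.74 in Res 499, at 8.20 in Res 177, and at 9.03, 8.59, 8.63 and 7.89 in control tumors. It had the most negative change of the 10, at -0.21 (SE 0.22, 95% interval -0.69 to 0.26, limma adjusted p = 0.742), and no Res 499 tumor lay above every control. Ceacam1 has a close paralog, Ceacam2, so its probe set value is uncertain.

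Promoter sequences of 8 of the 10 genes, all but Cd86 and Pvr, were matched in a RefSeq table of 300-base windows around 1 start per entry (GRCm38.p6) and searched for cores of 2 interferon-responsive elements. The core of the interferon-stimulated response element, TTTC, 2 bases of any kind and TTTC on either strand, was found in 2 of the 8, Lgals9 and Tnfrsf14, and in 3.44% of all 32851 windows. Lgals9 held it at positions -55 to -46 and 16 to 25 from the start, and Tnfrsf14 at -64 to -55. The core of the gamma-activated sequence, TTC, 3 bases of any kind and GAA, was in none of the 8 and in 8.3% of all windows. Both percentages are shares of windows, which cover 27025 genes, whereas the ligands were counted as genes. A match describes letters only and was not tested as a binding site. For Lgals9 that start is the end of the gene's span in the RefSeq gene table, whereas for Tnfrsf14 it lies 543 bases inside the span, so the printed stretch is upstream of the table's start but within the annotated gene. The 100 bases before the table's start are shown for these ligands because they hold the matches at negative positions, in capitals, at chr11:78984925-78985024 (minus strand) for Lgals9 and chr4:154928078-154928177 (minus strand) for Tnfrsf14, each written 5′ to 3′.
Lgals9: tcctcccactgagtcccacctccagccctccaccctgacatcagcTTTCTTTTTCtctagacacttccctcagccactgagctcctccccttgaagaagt
Tnfrsf14: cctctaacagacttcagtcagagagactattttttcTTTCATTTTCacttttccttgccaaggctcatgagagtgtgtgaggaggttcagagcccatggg

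Cd276 encodes B7-H3, a B7 family protein of many tumor types. It was at 8.53, 9.00 and 9.32 at the lowest, median and highest in Res 499, at 8.76 in the Res 177 tumor, and at 9.18, 8.98, 9.03 and 9.01 in control tumors. The Res 177 tumor and 3 of the Res 499 tumors lay below every control. The Res 499 change was -0.066 (SE 0.12, 95% interval -0.33 to 0.20, limma adjusted p = 0.871), and it was 0.010 without Res 499 replicate 5, the tumor with the lowest Cd276 level.

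Cd200 and Cd47 signal to myeloid cells through CD200R1 and SIRPα. Cd200 was at 6.46, 7.08 and 7.64 in Res 499, at 7.12 in Res 177, and at 7.46, 6.94, 7.16 and 6.66 in control tumors. Cd47 was at 10.07, 10.20 and 10.56 in Res 499, at 10.36 in Res 177, and at 10.34, 10.11, 10.34 and 10.07 in control tumors. Within Res 499 the Cd47 values fell into a high set, replicates 1, 2 and 3 at 10.53, 10.56 and 10.54, above every control, and a low set between 10.07 and 10.20 that lay among the controls. The Res 499 changes were 0.055 (SE 0.21, 95% interval -0.41 to 0.52, limma adjusted p = 0.944) for Cd200 and 0.10 (SE 0.11, 95% interval -0.14 to 0.35, limma adjusted p = 0.761) for Cd47. With leukocyte content as a covariate both changes were negative, at -0.20 (SE 0.23) for Cd200 and -0.084 (SE 0.10) for Cd47.

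**Figure D2:**
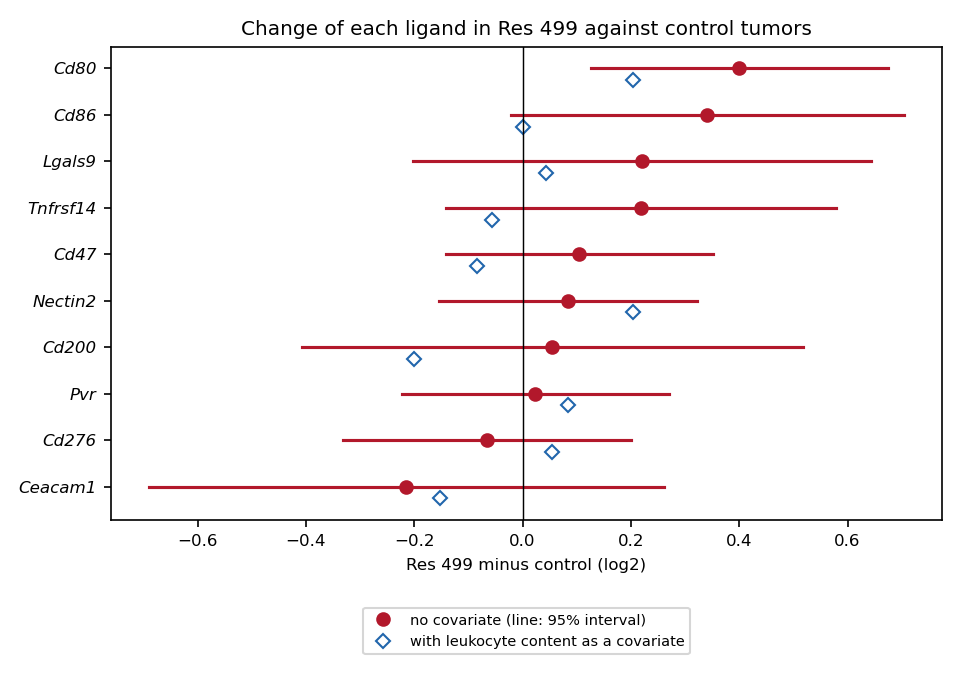
Change of each ligand in Res 499 (7 tumors) against control tumors (4) on the log2 scale, horizontal axis, with the limma estimate (filled circle) and its 95% interval (line), and the estimate with leukocyte content as a covariate (open diamond). The Cd80 interval of 0.13 to 0.67 lies to the right of 0 before adjustment over all genes, and with the covariate Cd86 moves to 0.00038.

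The highest and the lowest Res 499 tumor differed 2.27-fold for Cd200, 2.05-fold for Ceacam1, 1.95-fold for Tnfrsf14, 1.91-fold for Lgals9 and 1.90-fold for Cd86, and by less for the other 5, down to 1.34-fold for Pvr. On the log2 scale the range over 7 Res 499 tumors was 1.03 for Ceacam1 and 0.42 for Pvr, against 1.14 for Ceacam1 and 0.56 for Pvr over the 4 control tumors. The other 8 ranged more widely in Res 499, which has more tumors. The Res 499 spread was set against 2 measures of the same tumors, leukocyte content and the mean of the interferon-stimulated genes, in fits over the 7 Res 499 tumors. A slope is the log2 change of a gene for each log2 unit of the measure.

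On leukocyte content, 1.97% of 16630 genes had a slope past the threshold and none of the 10 ligands did, although 4 had an unadjusted p under 0.05, as did 9.3% of all genes. The largest slope among the ligands was that of Cd86, at 0.39 (SE 0.081, limma adjusted p = 0.0538). Cd86 was at 6.13, 6.00, 5.60 and 5.60 in the 4 tumors richest in leukocytes (replicates 2, 3, 1 and 5), against 5.20 to 5.42 in the other 3. Its adjusted p ran from 0.00560 with array weights to 0.772 with the interferon-stimulated mean as a second covariate, a range that includes 0.0219 without replicate 5. Slopes were 0.31 (SE 0.096, limma adjusted p = 0.243) for Tnfrsf14, 0.28 (SE 0.15, limma adjusted p = 0.681) for Cd200, 0.22 (SE 0.072, limma adjusted p = 0.294) for Cd80, 0.22 (SE 0.065, limma adjusted p = 0.220) for Cd47 and 0.22 (SE 0.16, limma adjusted p = 0.818) for Lgals9.

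The slopes of the other 4 were negative, at -0.057 (SE 0.073) for Pvr, -0.14 (SE 0.072) for Nectin2, -0.086 (SE 0.15) for Ceacam1 and -0.15 (SE 0.10) for Cd276. So 6 of the 10 slopes were positive, against 44.6% over all genes, and the median slope of the 10 was 0.22, against -0.011. Adgre1, the macrophage surface protein F4/80, had a slope of 1.71 (SE 0.11, limma adjusted p = 2.81e-04). Against 1.97% of all genes, 13 of 15 macrophage and monocyte markers and 6 of 8 fibroblast markers passed. So did 2 of 8 T cell, 1 of 9 dendritic cell and 1 of 4 neutrophil markers, and none of the NK cell, B cell, endothelial, melanocyte or keratinocyte markers. The part of these cells in the ligand slopes was not tested.

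On the interferon-stimulated mean, 0.343% of 16611 genes passed and none of the 10 ligands did. An unadjusted p under 0.05 was found for 4 ligands and 9.67% of all genes. Lgals9 had the largest slope, at 0.62 (SE 0.18, limma adjusted p = 0.241), followed by Tnfrsf14 at 0.53 (SE 0.14, limma adjusted p = 0.205), Cd86 at 0.50 (SE 0.18, limma adjusted p = 0.391), Cd47 at 0.35 (SE 0.10, limma adjusted p = 0.258), Cd200 at 0.32 (SE 0.26, limma adjusted p = 0.754) and Cd80 at 0.27 (SE 0.14, limma adjusted p = 0.584). Ceacam1 was at 0.13 (SE 0.24), Cd276 at 0.010 (SE 0.18), Pvr at -0.048 (SE 0.12) and Nectin2 at -0.10 (SE 0.13). So 8 of the 10 slopes were positive, against 46.2% over all genes.

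The measures ordered Res 499 replicates 4 and 5 differently. Replicate 4 had a leukocyte content of 6.55 and an interferon-stimulated mean of 8.06. Replicate 5 had 7.64 and 7.76. Lgals9 was at its highest, 11.15, in replicate 4 and at 10.40 in replicate 5, whereas Cd86 was at its lowest, 5.20, in replicate 4 and at 5.60 in replicate 5. Tnfrsf14 and Cd47 hardly differed between these tumors, at 6.44 in both for Tnfrsf14 and at 10.19 and 10.20 for Cd47. Cd80 was at 6.56 in replicate 4 and 6.81 in replicate 5, and Cd200 at 6.46 and 6.85. With both measures in 1 fit the Lgals9 slope was 1.01 on the interferon-stimulated mean (limma adjusted p = 0.897). On leukocyte content it was -0.30 (SE 0.17, limma adjusted p = 0.995). The Cd86 slope was then -0.014 on the interferon-stimulated mean (SE 0.24, limma adjusted p = 0.996). On leukocyte content it was 0.40 (limma adjusted p = 0.772). Replicates 2 and 3 were highest and replicates 6 and 7 lowest on both measures. With 7 tumors this fit therefore cannot separate the 2 measures.

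**Figure D3:**
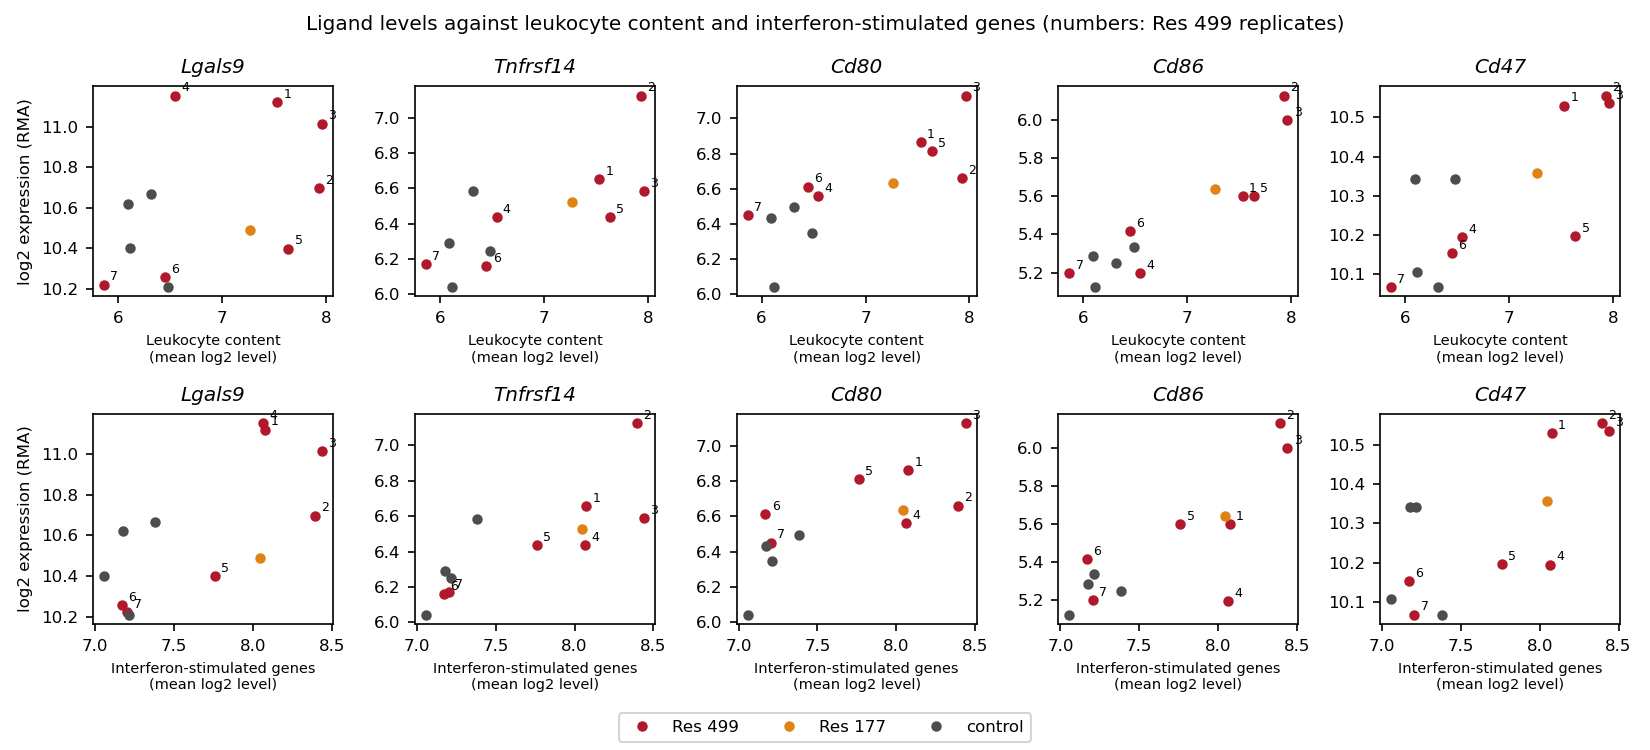
Log2 expression of Lgals9, Tnfrsf14, Cd80, Cd86 and Cd47 (vertical axes) against leukocyte content (top row) and the mean of the interferon-stimulated genes (bottom row), 1 point per tumor of the first design, with Res 499 replicates numbered. In Res 499 replicate 4, with a leukocyte content of 6.55 and an interferon-stimulated mean of 8.06, Lgals9 stands at 11.15 and Cd86 at 5.20.

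**Figure D4:**
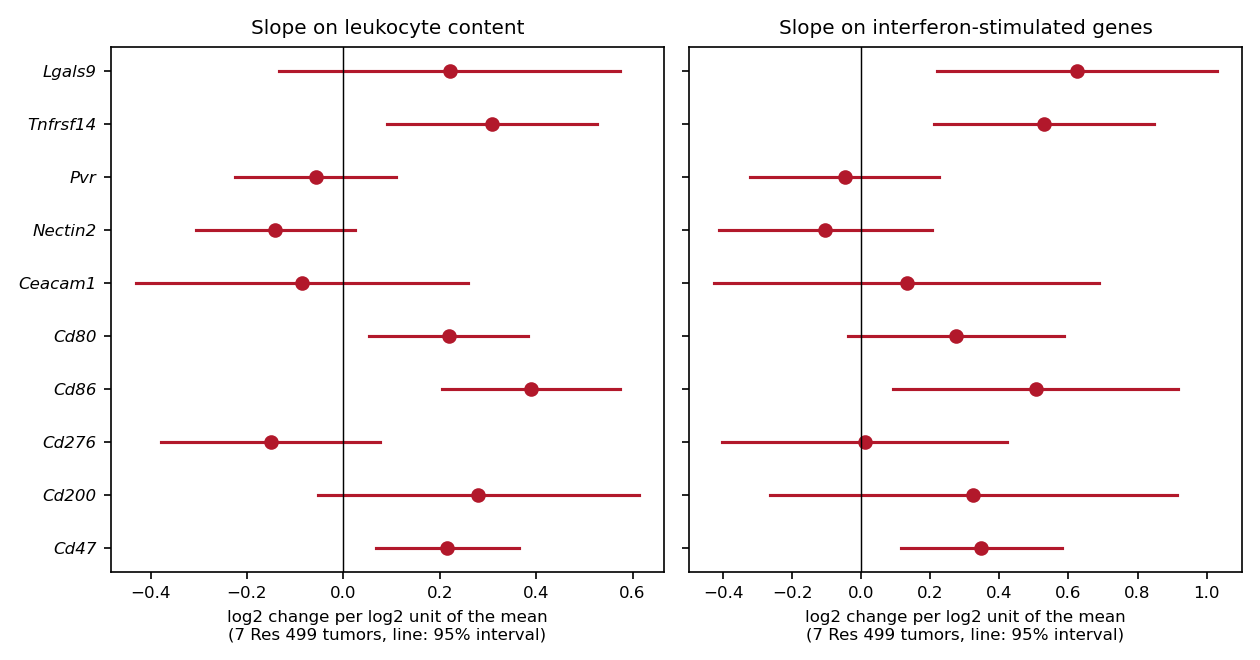
Slope of each ligand on leukocyte content (left) and on the interferon-stimulated mean (right) over 7 Res 499 tumors, as log2 change per log2 unit, with the limma estimate (circle) and 95% interval (line). Cd86 has the largest slope on leukocyte content, 0.39, and Lgals9 the largest on the interferon-stimulated mean, 0.62.

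Likeness was measured between a ligand and the other tested genes, apart from groups of genes left out by name. It was the root mean square difference of their standardised profiles over the 12 tumors of the first design. Here 0 means the same profile, and the median over these genes was 1.32 to 1.39. The nearest genes to Cd86 were Sla, a Src-like adaptor (0.23), Tlr8, an endosomal RNA sensor (0.26), and Lum, the matrix protein lumican (0.26). The nearest to Cd80 were the kinase Fes (0.28), Csf2ra, a chain of the GM-CSF receptor (0.35), and the adaptor Dok3 (0.37). The nearest to Tnfrsf14 were Cd8a, the CD8 alpha chain of T cells (0.24), Uba7, the activating enzyme for ISG15 (0.27), and Cd3e, of the T cell receptor complex (0.31). The nearest to Cd47 were Prkch (0.26), Pxdn (0.30) and Atp8b1 (0.31), and the nearest to Lgals9 were Ttc7 (0.46), Ywhag (0.49) and Ch25h (0.51). Among the ligands themselves the closest pair was Cd86 and Cd47 (0.59), then Tnfrsf14 and Cd86 (0.62), Cd200 and Cd47 (0.63) and Cd80 and Cd86 (0.69).

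Of the receptors and partners of these ligands, 11 of 12 listed genes had a probe set and 5 passed the filter: Havcr2, which encodes TIM-3, Btla, Cd28, Cd200r1 and Sirpa. Ctla4 and Tigit were among the 6 that fell below the filter and were not tested. None of the 5 passed in Res 499 against control; 4 were positive, with changes of 0.41 (SE 0.24) for Havcr2, 0.27 (SE 0.15) for Cd200r1, 0.20 (SE 0.14) for Sirpa and 0.13 (SE 0.080) for Btla. The median was 0.20. Within Res 499 Havcr2 rose with leukocyte content by 0.59 per log2 unit (SE 0.10, limma adjusted p = 0.0215) and Cd200r1 by 0.35 (SE 0.060, limma adjusted p = 0.0199). However, Havcr2 lost the call in 5 and Cd200r1 in 4 of the 7 fits that left out 1 tumor. Over all 18 alternatives Havcr2 lost it in 6 and Cd200r1 in 5.

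Of 15 other costimulatory and coinhibitory ligands 13 were tested, 9 were positive and none passed in Res 499 against control, with a median change of 0.18. Cd40, the costimulatory receptor of antigen-presenting cells, ran from 5.97 to 6.67 in Res 499 and from 5.60 to 5.94 in control tumors. The ranges did not overlap, as for 2.39% of all genes, and its change of 0.47 (SE 0.14) missed the threshold (limma adjusted p = 0.177). Changes were 0.72 (SE 0.33) for Cd48, a ligand of the NK and T cell receptor 2B4, 0.68 (SE 0.38) for H2-T23, which encodes the NKG2A ligand Qa-1, and 0.47 (SE 0.33) for Vsir, which encodes VISTA. In Res 499, 8 of the 13 had a positive slope on leukocyte content and 3 passed the threshold, against 1.97% of all genes. These 3 were Vsir at 0.86 (SE 0.074, limma adjusted p = 9.00e-04), Cd48 at 0.84 (SE 0.11, limma adjusted p = 0.00558) and H2-T23 at 0.86 (SE 0.16, limma adjusted p = 0.0303). H2-T23 also rose with the interferon-stimulated mean, by 1.47 (SE 0.18, limma adjusted p = 0.0190). Vsir and Cd48 kept their calls in each of 7 fits that left out 1 tumor. Both lost them with the interferon-stimulated mean as a second covariate, where the slopes were 0.86 for Vsir (limma adjusted p = 0.0705) and 0.67 for Cd48 (limma adjusted p = 0.434). With 1 tumor left out H2-T23 lost its call in 5 of 7 fits on leukocyte content and in 4 of 7 on the interferon-stimulated mean. Over all alternatives H2-T23 lost it in 7 of 19 on leukocyte content and in 5 of 17 on the interferon-stimulated mean.

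Beside these results, the mean of 15 macrophage and monocyte markers ran from 6.67 to 9.08 in Res 499 and from 6.87 to 7.44 in control tumors, and the changes of the 15 were positive (median 0.98), against 51.7% of all genes, but none passed. The mean of 9 dendritic cell markers ran from 6.01 to 6.58 in Res 499 and from 5.92 to 6.16 in control tumors. Ptprc, the leukocyte antigen CD45, was at 7.14 ± 1.16 (SD, n = 7) in Res 499 and 5.99 ± 0.38 (SD, n = 4) in control (limma adjusted p = 0.369), Adgre1 differed by 1.43 (SE 0.64, limma adjusted p = 0.370) and Cd3e by 0.33 (SE 0.21, limma adjusted p = 0.561). The pigment genes Pmel and Tyr differed by 0.16 (SE 0.063, limma adjusted p = 0.286) and -0.050 (SE 0.17, limma adjusted p = 0.934). The part of these cell types in the ligand changes was not tested beyond the fits with leukocyte content.

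When the sublines were pooled by the response label, 8 resistant tumors, of which 7 were Res 499, were set against 4 sensitive ones. None of the 10 ligands passed, and 0.613% of all genes did (limma). An unadjusted p under 0.05 was found for 2 of the 10, Cd80 and Cd86, and for 13.4% of all genes, and 8 of the 10 changes were positive, against 52.4%. Cd80 differed by 0.39 (SE 0.12, limma adjusted p = 0.170) and Cd86 by 0.35 (SE 0.16, limma adjusted p = 0.359). The 8 other changes lay between -0.23 for Ceacam1 and 0.22 for Tnfrsf14. This comparison shares its control tumors and nearly all resistant tumors with that of Res 499.

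The Res 177 subline had 1 tumor on each design. On the first, where its error is taken from the spread of the other groups, none of the 10 ligands passed and 0.21% of all genes did (limma). No ligand had an unadjusted p under 0.05, as 4.08% of all genes did, and 7 of the 10 changes were positive, against 53.3%. Changes were 0.39 (SE 0.30) for Cd86, 0.31 (SE 0.23) for Cd80, 0.23 (SE 0.30) for Tnfrsf14, -0.29 (SE 0.22) for Cd276 and -0.33 (SE 0.39) for Ceacam1, each with a limma adjusted p = 0.9998. With this error the intervals were wide, from -0.26 to 1.04 for Cd86. This tumor stood apart in keratinocyte markers, whose mean over 7 genes was 7.37 in the Res 177 tumor, between 5.01 and 5.26 in Res 499 and between 5.04 and 5.19 in control tumors. Its macrophage and monocyte mean was 8.10, above the highest control. The part of these cells in the Res 177 values was not tested beyond the fit with leukocyte content as a covariate. In that fit the change of Cd86, the largest positive one here, was -0.0027.

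On the second design, normalized separately, a Res 177 and a control tumor were compared with no replicates and no test. Lgals9 was at 11.25 in Res 177 and 10.53 in control, a difference of 0.72. Tnfrsf14 was at 7.24 in Res 177 and 6.56 in control, a difference of 0.69, and Cd80 at 6.89 in Res 177 and 6.34 in control, a difference of 0.55. Differences above 0.5 were found for 5.03% of all genes above the filter of that design.

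Cd276 was at 9.48 in Res 177 and 10.28 in control, a difference of -0.79, and Ceacam1 at 8.29 in Res 177 and 8.97 in control, a difference of -0.67. Differences below -0.5 were found for 2.49% of genes. Cd86 lay below the filter there, at 5.84 in Res 177 and 5.44 in control. The remaining 4 differed by 0.17 for Pvr, 0.12 for Cd200, 0.014 for Nectin2 and -0.026 for Cd47. The Cd80 difference depended on the probe set, and was 0.25 with the mean of its 2 probe sets.

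Of the 9 ligands above the filter of both designs, 7 had the same sign of the Res 177 difference on both, against 62.3% of genes, and Pvr and Cd47 did not. The 7 include Nectin2 and Lgals9, whose differences on the first design were 0.0011 for Nectin2 and 0.014 for Lgals9 and changed sign under some alternatives. On the second design the Nectin2 difference also changed sign, to -0.059 with arrays centred on their medians. The sizes differed: Lgals9, at 0.72 on the second design, was at 0.014 on the first. Since each design held 1 Res 177 tumor, subline and tumor cannot be told apart.

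**Figure D5:**
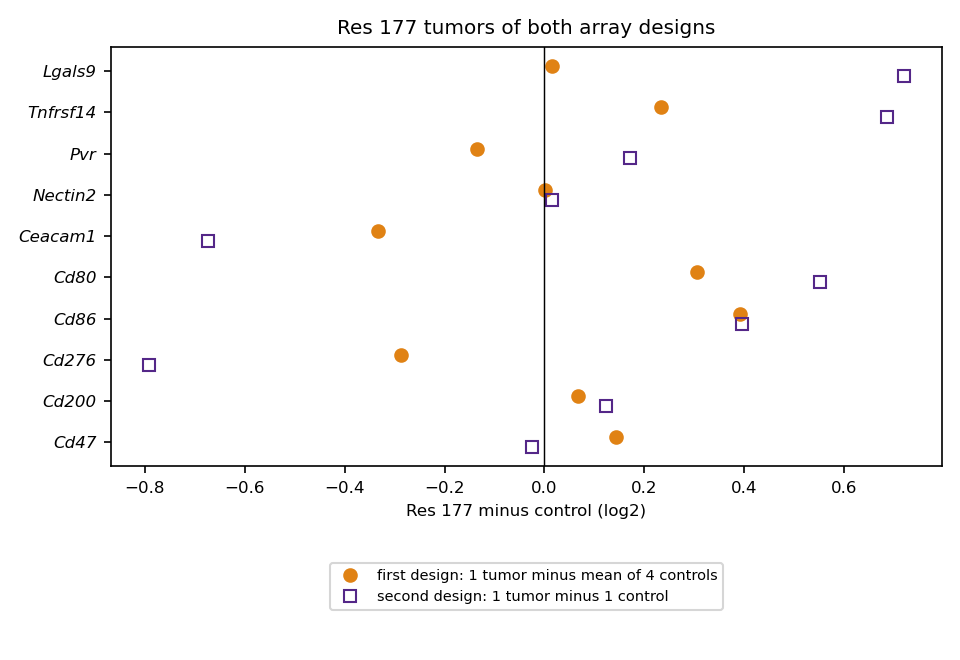
Difference of each ligand in Res 177 against control on the log2 scale (horizontal axis): filled circles are the first design, 1 tumor minus the mean of 4 controls, and open squares the second, 1 tumor minus 1 control. Cd276 and Ceacam1 are below 0 and Cd80, Cd86 and Tnfrsf14 above 0 on both, while Lgals9 is at 0.014 on the first and 0.72 on the second.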

How the data were processed

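The authors deposited log2 expression values, 1 per probe set and tumor. The submitters' processing notes name RMA and oligo, which subtract background, make array distributions equal by quantiles and combine a set's probes. The sources used here do not give versions, annotation or genome build, and the log2 scale was inferred from the size of the values. The 2 designs were normalized separately and never pooled. No 2 arrays held identical values. Arrays carry no read depth, so the number of tumors limits precision.

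Gene names came from GEO's platform annotation. Of 41345 probe sets of the first design 23521 had 1 symbol, 1814 several and 16010 none, and of 35556 of the second 21789, 1621 and 12146. Only those with 1 symbol were used, and symbols checked through Entrez numbers against RefSeq changed 0 times. The tests used limma 3.58.1 (lmFit, eBayes) under R 4.3.3: a fit of 3 groups, a fit of the 2 response levels, and slopes within Res 499, with Benjamini-Hochberg adjustment over all genes tested. Genes used to form a measure were left out of its test. The fits were also run on simulated data with independent normal errors and a pooled SD per gene. Those data lack spread shared between genes, so that run checked the code and not the present results. Groups come from the subline labels, and replicates were numbered in order of deposition, so numbers only name tumors.

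The ligands, lists and tests were chosen with earlier results of these data known. All 10 ligands are named, with the 3 genes of most similar profile. Predicted, Rik and clone-named genes, receptor multigene families, antigen receptor segments and small RNAs were left out of that search by name pattern. The pattern also left out every gene whose name starts with Rn. Also named are those partner genes past the threshold or otherwise up to 4 of largest change, and Ptprc, Adgre1, Cd3e, Pmel and Tyr. Alternatives covered the dim-gene filter, probe set choice, normalization, eBayes prior, array weights, threshold, covariates and each tumor left out. The fit with both measures was chosen after seeing the data.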

Additional observations from a re-analysis of the deposited data

How the results depend on the processing

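No ligand passed the threshold in Res 499 against control, Res 177 against control or resistant against sensitive under any alternative run, nor for the slope on the interferon-stimulated mean. For the slope on leukocyte content the count of ligands was 3 with array weights (Cd80, Cd86 and Cd47), 1 with a robust trended prior, 1 at a threshold of 0.1, 1 with Ptprc alone as the measure (Cd86 each time), and 0 to 2 with each tumor left out, the 2 being Cd86 and Cd47 without replicate 5. Precision was limited by the number of tumors, and Cd86 lay near the filter level.

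Counts of genes moved more. In Res 499 the count of 59 was 356 with array weights, 229 at a threshold of 0.1, 27 with a leukocyte covariate and, with each tumor left out, 6 (without control replicate 4) to 196 (without Res 499 replicate 2), past 1.5 times for each of the 11 but Res 499 replicate 5 and control replicate 5. In Res 177 the count of 35 was 101 without the filter and 2 with the lowest 50% left out. For resistant tumors the count of 102 was 330, 254 and 41 under the 3 settings named first, 42 with sublines weighted equally and 9 (without control replicate 4) to 141 with each tumor left out, past 1.5 times except without Res 499 replicates 2 and 5 or control replicate 5. For leukocyte content the count of 327 was 827 with array weights, 50 with the second covariate and 128 (without replicate 7) to 599 (without replicate 5) with each tumor left out, and was also past 1.5 times without replicates 3 and 6. For the interferon-stimulated mean the count of 57 was 422 with array weights, 127 at a threshold of 0.1, 3 with the second covariate and 14 (without replicate 7) to 258 (without replicate 4) with each tumor left out, past 1.5 times for all 7. The cause was not tested.

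Reversals of sign were limited to values that had not passed the threshold. With the leukocyte covariate, Res 499 changes turned to -0.056 for Tnfrsf14, 0.055 for Cd276, -0.20 for Cd200, -0.084 for Cd47, -0.096 for Havcr2, -0.038 for Cd200r1, -0.027 for Cd48, -0.057 for H2-T23, -0.29 for Vsir, -0.076 for Adgre1, -0.052 for Cd3e and 0.017 for Tyr. Res 177 changes turned to -0.19 for Lgals9, -0.083 for Tnfrsf14, -0.0027 for Cd86, -0.23 for Cd200 and -0.074 for Cd47, and resistant changes to -0.059 for Tnfrsf14, 0.035 for Cd276, -0.20 for Cd200 and -0.083 for Cd47. With array weights Cd200 turned to -0.070 in Res 499, -0.011 in Res 177 and -0.047 in resistant tumors, and slopes on the interferon-stimulated mean to -0.089 for Ceacam1 and -0.025 for Cd276. With arrays centred on their medians Pvr turned to -0.0040 in Res 499 and -0.028 in resistant tumors, and in Res 177 Lgals9 to -0.045 and Nectin2 to -0.058. With quantile normalization repeated Nectin2 turned to -0.025 in Res 177 and the Cd276 slope on the interferon-stimulated mean to -0.038, and with sublines weighted equally Pvr turned to -0.055 in resistant tumors. With both measures in 1 fit the Lgals9 slope on leukocyte content turned to -0.30, and slopes on the interferon-stimulated mean to 0.081 for Pvr, 0.25 for Nectin2, -0.034 for Cd80, -0.014 for Cd86 and -0.13 for Cd200.

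With each tumor left out, Res 499 changes ran from -0.072 to 0.11 for Pvr, -0.13 to 0.044 for Tyr, -0.077 to 0.19 for Cd200 and -0.12 to 0.010 for Cd276. Res 177 changes ran from -0.074 to 0.078 for Lgals9, -0.047 to 0.096 for Nectin2 and -0.065 to 0.20 for Cd200, and resistant changes from -0.092 to 0.094 for Pvr and -0.076 to 0.19 for Cd200. The Ceacam1 slope on leukocyte content ran from -0.22 to 0.0013. Slopes on the interferon-stimulated mean ran from -0.037 to 0.13 for Cd276, -0.092 to 0.017 for Pvr, -0.15 to 0.011 for Nectin2 and -0.032 to 0.36 for Ceacam1. Of 1005 values of the ligands under alternatives, 936 kept direction and side of the threshold, 61 changed sign and 8 newly passed. These counts leave out the second design, which had no test. No paired analysis was possible because the labels give no replicate numbers shared between groups.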

Other observations

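The profiles of the remaining ligands were nearest to genes of other kinds. Pvr was nearest to Pip5k1a (0.41), Polg, the mitochondrial DNA polymerase (0.44), and the kinase Pak4 (0.45). Nectin2 was nearest to Dscam (0.39), Mib2 (0.39) and Gspt2 (0.41). Ceacam1 was nearest to Npnt, the matrix protein nephronectin (0.38), Dhtkd1 (0.46) and Farp2 (0.48). Cd276 was nearest to Mroh1 (0.35), Eef2k, the kinase of elongation factor eEF2 (0.40), and Aldh2, an aldehyde dehydrogenase (0.43). Cd200 was nearest to the transcription factor Ebf1 (0.52), Rragc (0.53) and Gucy1b1, a subunit of soluble guanylate cyclase (0.54). Values are root mean square differences of standardised profiles over 12 tumors, given as a description with no test. Ceacam1 and Cd276, the ligands with negative changes in Res 499 and in Res 177 on both designs, differed by 0.85 from each other, and Pvr and Nectin2 by 0.88.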
